A study of Arabidopsis thaliana with 6 samples.

Results

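The xyloglucan endotransglucosylase/hydrolases (XTHs) of Arabidopsis thaliana are a family of 33 genes, XTH1 to XTH33. They were taken by their locus tags, not by any measured value, and all 33 were among the 33518 genes of the larger of the authors' deposited tables. RNA was sequenced from Col-0 seedlings grown for 5 days on half-strength MS plant medium under constant light. PRE1-Ox/IBH1-Ox seedlings carried 35S:IBH1-myc together with 35S:PRE1-YFP, IBH1-Ox seedlings carried 35S:IBH1-myc alone, and wild-type seedlings carried no transgene, with 2 libraries for each of the 3 genotypes. The viral 35S promoter is active in most plant tissues, so neither transgene follows the pattern of the native gene, and the labels do not give the number of independent transgenic lines or say whether the libraries came from separate cultures. The p-values therefore measure the spread between these libraries, which may be technical.

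XTHs act in the cell wall. They cut a xyloglucan chain, the main hemicellulose that coats and links cellulose fibrils in the primary wall, and either join the cut end to another chain (transglucosylase activity) or pass it to water (hydrolase activity). Most members, in clades I/II and III-B, are regarded as transglucosylases, and clade III-A, XTH31 and XTH32, holds the hydrolases. Transcripts of many XTHs respond to brassinosteroid, auxin, light or touch and are abundant in elongating organs. IBH1 is a helix-loop-helix protein that binds growth-promoting bHLH factors and keeps them from DNA, PRE1 belongs to a family of small non-DNA-binding partners that bind IBH1 in turn, and the study's title places such proteins in a cascade that controls cell elongation.

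The catalytic centre of an XTH is a short stretch with a pair of glutamates, the nucleophile and the acid/base residue. Its 27 coding bases are shown because they code for these glutamates and because they show how far members with unlike expression differ in letters. They were read from the RefSeq genome TAIR10.1, on the strand of the gene, with the glutamate codons in capitals.
XTH7: gacGAGcttgattttGAGttcttagga
XTH4: gacGAGatagactttGAGttccttgga
XTH17: gatGAGatcgatttcGAGttcttggga
XTH18: gatGAGattgatttcGAGttcttagga
XTH15: gacGAGatagactttGAGtttctaggt
XTH31: gatGAGgtcgatatcGAGtttctaggg
The stretch was found in the coding sequence of 30 of the 33 members, allowing any residue at the 3 inner positions, and in 22 of them it coded for the strict form of the motif. All 30 had a different base sequence. XTH9, XTH11 and XTH33 had no match in these letters.

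The deposited values are group means of normalized counts, that is, reads per gene divided by a size factor for each library. Whole reads per library were recovered from these means for every XTH member. The recovered reads summed to 9506402 and 7979224 in the PRE1-Ox/IBH1-Ox libraries and to 13894329 and 12164715 in the IBH1-Ox libraries. For the wild type, only the listed genes can be summed. In each group the library of the larger size factor is given first, and library values are in normalized counts of the table named. The transgenes behaved as labelled. IBH1 (AT2G43060) had 11790.2 and 12997 normalized counts in IBH1-Ox, against 179 and 138 in wild type. PRE1 (AT5G39860) had 8465 and 8344 in PRE1-Ox/IBH1-Ox, against 125 and 135 in IBH1-Ox. In the comparison with wild type, PRE1 was already higher in IBH1-Ox, at 140.2 and 151 against 66.7 and 56.4 in wild type. Its log2 fold change there was 1.25 (adjusted p 6.68e-10, authors' deposited table). IBH1 was also somewhat higher in the double line, at 16541 and 16523 against 10551 and 11629 in IBH1-Ox, a log2 fold change of 0.58 (adjusted p 3.96e-08, authors' deposited table). Reads of a transgene and of the native gene were not separated. Markers of root hair, xylem, phloem, mesophyll and endodermis were all above 0, as a whole seedling would give. In PRE1-Ox/IBH1-Ox against IBH1-Ox, 2 of 4 mesophyll markers rose and 2 fell (summed means 528524 in the double line and 520036 in IBH1-Ox), and neither of 2 phloem markers was called (1530.5 to 1585 in the double line and 1400.0 to 1453 in IBH1-Ox). Of 4 seed markers SESA1 rose, from only 9 and 6 reads in the double line and 2 and 0 in IBH1-Ox. The other 3 seed markers had lower means in the double line and were not called. The seed markers summed to 442 and 406 in the double line and to 1728 and 735 in IBH1-Ox, and their part in the XTH values was not tested.

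With PRE1 overexpressed on top of IBH1, 9 XTHs rose and 3 fell, and XTH4 and XTH7, the 2 most abundant in PRE1-Ox/IBH1-Ox, were among those that rose. The authors' deposited table of PRE1-Ox/IBH1-Ox against IBH1-Ox gave a p-value to 32 of the 33 members. Of these, 9 were higher in PRE1-Ox/IBH1-Ox at an adjusted p below 0.05 (DESeq, per the submitters' processing notes), while 12.7% of the 24451 genes tested were higher. The 3 members that were lower stand against a background of 9.78%, which is about the same share. The median log2 fold change was 0.15 over the 32 members and -0.02 over all genes tested. At 1.5-fold or more, 6 members were higher and 1 lower, where the background was 5.56% higher and 4.64% lower. A limma-voom fit to the recovered reads, in which 29 members passed the minimum mean of 10, called 11 higher and 3 lower, among them all 12 of the authors' calls with the same sign. The share of all genes called higher was 20.8% in that fit, and 17.3% were called lower. Seedlings hold many cell types, and in such bulk RNA a change in the number of cells of a type and a change in RNA per cell cannot be told apart.

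**Figure D1:**
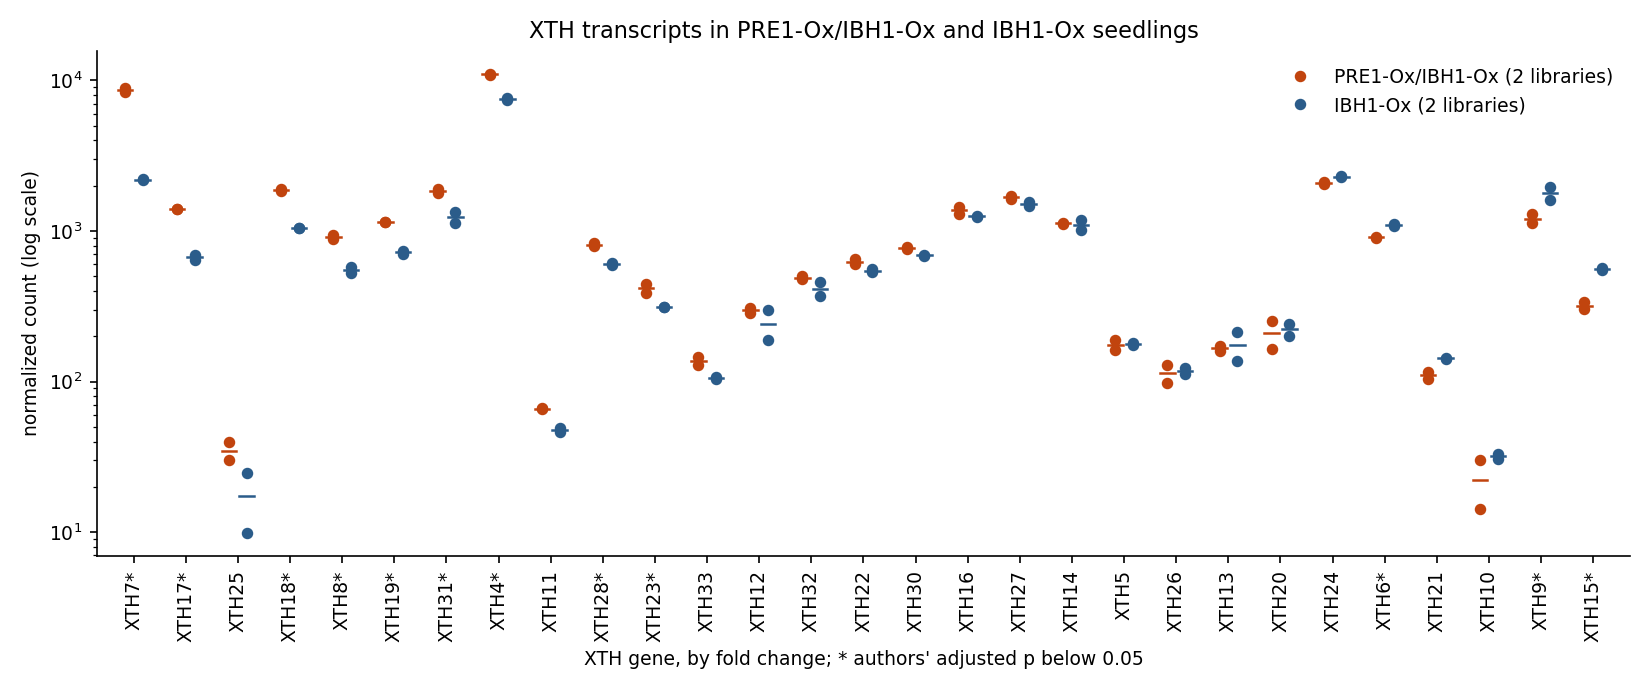
Normalized counts of the 29 XTH members with a mean of 10 or more in the PRE1-Ox/IBH1-Ox and IBH1-Ox libraries, on a log axis, ordered by fold change. Points are libraries, lines are group means and stars mark an authors' adjusted p below 0.05. XTH4 and XTH7 lie highest in PRE1-Ox/IBH1-Ox, with means of 11000.4 and 8648, and the gap between genotypes is widest for XTH7.

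XTH7 (AT4G37800, chromosome 4, 17775370 to 17777445, minus strand, 4 coding exons, TAIR10.1 as for all positions here) moved most. It had 8864 and 8432 normalized counts in PRE1-Ox/IBH1-Ox, against 2176 and 2206 in IBH1-Ox. Both libraries of the double line lay far above both IBH1-Ox libraries. The authors' deposited table gave a fold of 3.95 (log2 1.98, adjusted p 1.44e-75), and limma-voom gave 1.98 ± 0.047 (SE) on the log2 scale. XTH7 was also the single member listed as lower in IBH1-Ox than in wild type, with 2431 and 2465 normalized counts in IBH1-Ox against 5754 and 4776 in wild type. In that comparison the authors' deposited table gave a log2 fold change of -1.10 with an adjusted p of 3.20e-19.

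XTH17 to XTH19 form a closely related group of mostly root-expressed transglucosylases, and all 3 rose in PRE1-Ox/IBH1-Ox. XTH17 (AT1G65310, chromosome 1, 24257054 to 24258506) had 1409 and 1405 normalized counts in the double line, against 695 and 645 in IBH1-Ox. The authors' deposited table gave it a log2 fold change of 1.07 (adjusted p 8.88e-09), and limma-voom 1.07 ± 0.066 (SE). XTH18 (AT4G30280) had 1849.8 and 1902 in the double line, against 1042 and 1044 in IBH1-Ox, a log2 fold change of 0.85 (adjusted p 5.18e-14, authors' deposited table). In both genes the replicate libraries differed by far less than the genotypes did. XTH19 (AT4G30290) stood at 1152 and 1149 in the double line and at 708 and 738 in IBH1-Ox, a log2 fold change of 0.67 (adjusted p 5.51e-09, authors' deposited table). None of these 3 genes was listed in the comparison of IBH1-Ox with wild type. The last member of the group, XTH20 (AT5G48070), was not called and its libraries overlapped, at 254 and 165 in the double line and 202 and 243 in IBH1-Ox. The coding sequences of XTH18 and XTH19 were 87.6% identical and those of XTH17 and XTH18 85.6%. Windows of 50 exonic bases found elsewhere in the nuclear genome made up 0.182% of XTH17, 1.70% of XTH18 and 1.77% of XTH19. Reads aligned to several places were counted apart, so a small part of the reads of these genes could be missing from their counts. Root markers gave 1 call in this comparison. Of the root endodermis and stele markers SCR, SHR and CASP1, SHR rose (log2 0.56), and their summed level was 2109 to 2142 in the double line and 1832 to 1993 in IBH1-Ox. Of the 7 root hair markers none was called by the authors' test, and their summed level was 4299.9 to 4434 in the double line and 3833 to 4169.7 in IBH1-Ox. No marker of either list was at 0, and their part in the XTH values was not tested.

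XTH17 and XTH18 lie on different chromosomes, and their promoters share the longest identical run of any pair in the family, so both are printed from 250 bases before to 50 after the annotated start. They were chosen for printing after their values had been seen. Capitals mark the shared run of 80 bases, which begins 73 bases before the start in both genes.
XTH17 promoter, chr1:24256804-24257103, plus strand: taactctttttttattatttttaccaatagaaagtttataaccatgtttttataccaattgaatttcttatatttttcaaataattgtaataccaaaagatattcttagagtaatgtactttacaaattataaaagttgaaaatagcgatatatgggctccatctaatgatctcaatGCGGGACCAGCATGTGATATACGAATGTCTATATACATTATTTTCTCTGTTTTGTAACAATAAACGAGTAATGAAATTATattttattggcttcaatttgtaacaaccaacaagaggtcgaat
XTH18 promoter, chr4:14827162-14827461, minus strand: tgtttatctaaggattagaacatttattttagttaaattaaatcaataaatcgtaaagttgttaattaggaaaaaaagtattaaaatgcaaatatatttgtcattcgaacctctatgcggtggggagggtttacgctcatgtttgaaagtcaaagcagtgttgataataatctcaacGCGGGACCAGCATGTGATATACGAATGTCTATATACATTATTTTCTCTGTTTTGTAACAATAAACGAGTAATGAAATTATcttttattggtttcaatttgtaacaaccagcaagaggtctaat
Among the 528 pairs of XTH promoters the median longest shared run was 9 bases, and 2 pairs exceeded 20 bases, this one and XTH12 with XTH13 (23 bases). XTH18 and XTH19, neighbours on chromosome 4 that both rose, shared no run over 20 bases.

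XTH4 (AT2G06850), a member that acts in wood and stem growth and had the highest mean of the family in both lines, had 10911 and 11089.7 normalized counts in PRE1-Ox/IBH1-Ox, against 7458 and 7623 in IBH1-Ox. Both double-line libraries were higher, with a log2 fold change of 0.54 (adjusted p 5.93e-08, authors' deposited table; limma-voom 0.54 ± 0.039, SE). XTH8 (AT1G11545) had 881 and 941 in the double line, against 574 and 525 in IBH1-Ox, a log2 fold change of 0.73 (adjusted p 6.62e-11, authors' deposited table). XTH23 (AT4G25810) had 444 and 387 in the double line, against 315 and 311 in IBH1-Ox. Its groups did not overlap, but the step was small, with a log2 fold change of 0.41 (adjusted p 0.00722, authors' deposited table), and limma-voom gave an adjusted p of 0.110 once the double-line library of the larger size factor was left out.

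Clade III gave 2 further members that rose. XTH31 (AT3G44990), a III-A hydrolase whose mutants are known for altered aluminium tolerance, had 1915 and 1792 normalized counts in PRE1-Ox/IBH1-Ox, against 1138 and 1330.3 in IBH1-Ox (log2 0.59, adjusted p 0.00797 in the authors' deposited table; limma-voom 0.60 ± 0.068, SE). The IBH1-Ox libraries differed from each other but stayed below both double-line libraries. XTH28 (AT1G14720), a III-B member known for its part in stamen filament growth, had 827 and 800.0 in the double line, against 595 and 609 in IBH1-Ox. Its log2 fold change was 0.43 (adjusted p 6.64e-05, authors' deposited table). By clade, 7 of the 25 members of I/II with a p-value rose and 3 fell, 1 of 2 members of III-A rose, and 1 of 5 members of III-B rose, where 12.7% of all genes tested rose and 9.78% fell. Among xylem markers, XCP1, XCP2 and IRX3 rose and VND7 was not called, with summed levels of 3364 to 3400.4 in the double line and 2512 to 2744 in IBH1-Ox. None was at 0, and their part in the values of XTH4 and the other members was not tested.

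The 3 members that fell all belong to clades I/II. XTH15 (AT4G14130), known for its part in petiole elongation under shade, had 338 and 302 normalized counts in PRE1-Ox/IBH1-Ox, against 565 and 552 in IBH1-Ox. The groups were well apart, with a log2 fold change of -0.80 (adjusted p 1.59e-09, authors' deposited table; limma-voom -0.80 ± 0.094, SE). XTH9 (AT4G03210), which like XTH4 acts in wood formation, had 1125 and 1288 in the double line, against 1956 and 1598 in IBH1-Ox. It fell by 0.56 on the log2 scale (adjusted p 2.90e-04, authors' deposited table), with a wide gap between the IBH1-Ox libraries. XTH6 (AT5G65730), the coding sequence of which is 71.8% identical to that of XTH7, had 919 and 894 in the double line, against 1072 and 1106 in IBH1-Ox. It fell by only 0.26 on the log2 scale (adjusted p 0.0125, authors' deposited table), and limma-voom gave an adjusted p of 0.0636 once the double-line library of the smaller size factor was left out.

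**Figure D2:**
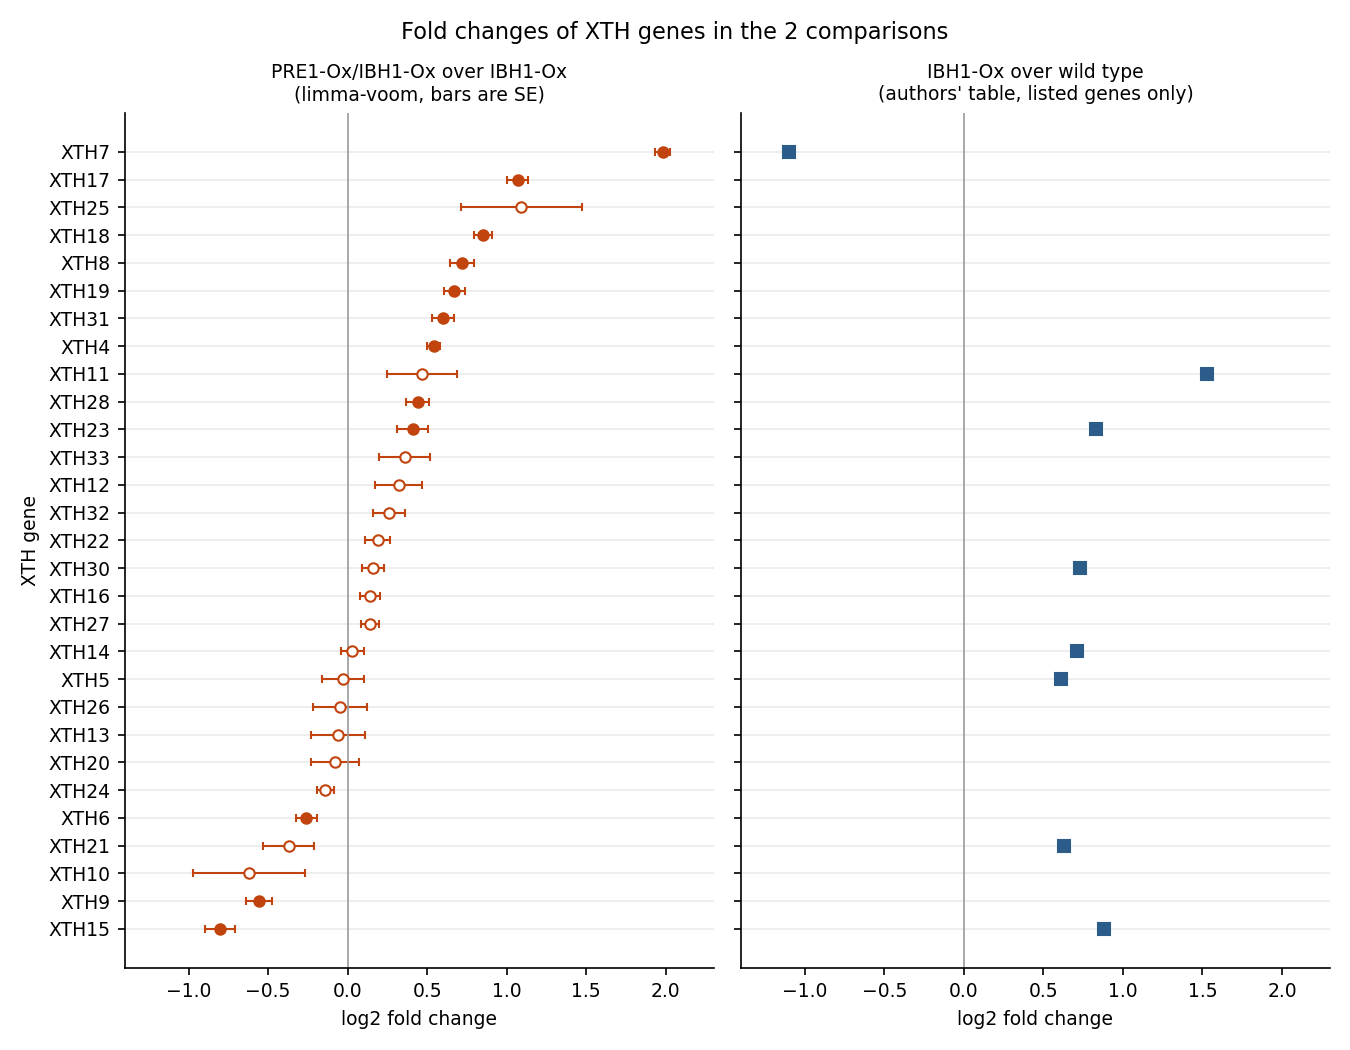
Log2 fold change of XTH members, on the same scale in both panels. On the left are limma-voom estimates with SE for the 29 members of mean 10 or more in PRE1-Ox/IBH1-Ox over IBH1-Ox, filled where the authors' adjusted p was below 0.05, and on the right the authors' folds of the 8 members listed for IBH1-Ox over wild type. XTH7 lies at 1.98 on the left and -1.10 on the right, and XTH15 at -0.80 on the left and 0.88 on the right.

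The other 20 tested members did not pass the threshold. The most abundant of them were XTH24 (AT4G30270), with 2058 and 2132 normalized counts in PRE1-Ox/IBH1-Ox and 2269 and 2331 in IBH1-Ox, XTH27 (AT2G01850), with 1624 and 1717 in the double line and 1556 and 1472 in IBH1-Ox, and XTH16 (AT3G23730), with 1454 and 1296 in the double line and 1259.8 and 1239 in IBH1-Ox. These values lie close together, with adjusted p 0.286 for XTH24, 0.210 for XTH27 and 0.471 for XTH16 in the authors' deposited table. XTH25 (AT5G57550) had 39.5 and 30.0 in the double line, against 24.9 and 9.91 in IBH1-Ox (log2 1.00, adjusted p 0.138 in the authors' deposited table), from 25 and 16 reads in the double line and 26 and 9 reads in IBH1-Ox. XTH32 (AT2G36870), the other III-A member, had 502 and 477 in the double line, against 369 and 457 in IBH1-Ox (log2 0.25, adjusted p 0.188 in the authors' deposited table). In the limma-voom fit XTH25 and XTH32 passed, with adjusted p 0.0282 and 0.0395, but each call depended on single libraries. XTH25 (log2 1.09 with all libraries) was not called by limma-voom without the IBH1-Ox library of the smaller size factor (log2 0.49, adjusted p 0.319) or without the double-line library of the larger (log2 0.89, adjusted p 0.151), and its log2 fold change was 1.77 without the IBH1-Ox library of the larger. XTH32 (log2 0.26 with all libraries) was not called by limma-voom without the IBH1-Ox library of the larger size factor (log2 0.10, adjusted p 0.460) or without either double-line library (adjusted p 0.227 and 0.0650), and its log2 fold change was 0.41 without the IBH1-Ox library of the smaller. XTH22 (AT5G57560), the touch-induced gene TCH4, had 601 and 654 in the double line and 556 and 536 in IBH1-Ox (adjusted p 0.480, authors' deposited table). Leaving out 3 members with very few reads, the log2 fold changes of the uncalled members ran from -0.53 (XTH10) to 1.00 (XTH25).

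4 members were at or near 0. XTH1 (AT4G13080) had no read in PRE1-Ox/IBH1-Ox or in IBH1-Ox. XTH2 (AT4G13090), its neighbour on chromosome 4, had 0 reads in the double line and 8 in IBH1-Ox (adjusted p 0.453, authors' deposited table). XTH3 (AT3G25050) had 2 and 0 reads in the double line and 2 and 5 in IBH1-Ox, and XTH29 (AT4G18990) had 1 and 0 in the double line and 0 and 3 in IBH1-Ox. No difference was detectable for them at this depth.

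Neighbouring XTH genes did not all move alike in PRE1-Ox/IBH1-Ox against IBH1-Ox. XTH24, XTH18 and XTH19 lie within 11033 bases on chromosome 4, and XTH18 and XTH19 rose in the double line while XTH24 had a log2 fold change of -0.13 that did not pass. XTH23 and XTH14 (AT4G25820) lie within 3467 bases on the same chromosome. Both were listed as higher in IBH1-Ox than in wild type (log2 0.83 for XTH23 and 0.71 for XTH14). In the double line against IBH1-Ox, XTH23 was called while XTH14 was not. XTH14 stood at 1136 and 1114 in the double line and 1191 and 1018 in IBH1-Ox. Of XTH12, XTH13, XTH25 and XTH22, within 8360 bases on chromosome 5, none was called by the authors' test. XTH12 (AT5G57530) and XTH13 (AT5G57540) were 89.4% identical in coding sequence, and both had a lower IBH1-Ox library of the smaller size factor, at 188 against 297 for XTH12 and 137 against 212 for XTH13. Whether differences between neighbours exceed chance was not tested.

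Levels of different members can be compared only per length. Per kilobase of exon, the family summed to 28896 and 28623 normalized counts in PRE1-Ox/IBH1-Ox, against 19669 and 19391 in IBH1-Ox, a ratio of 1.47. Most of this difference lay in XTH4 and XTH7, since without them the sums of the means were 15234 in the double line and 13159 in IBH1-Ox, a ratio of 1.16. XTH4 had the highest mean in both genotypes, with 23.7% of the family's summed level in the double line and 23.9% in IBH1-Ox. XTH7 ranked 2 in the double line with 23.3% and 3 in IBH1-Ox with 8.71%. XTH4 and XTH7 swapped order between the double-line libraries (6756 and 6882 per kilobase in that of the larger size factor, 6867 and 6547 in the other), so they did not differ there beyond their spread. XTH24, known as MERI5, ranked 3 in the double line with 6.02% and 2 in IBH1-Ox with 9.73%.

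**Figure D3:**
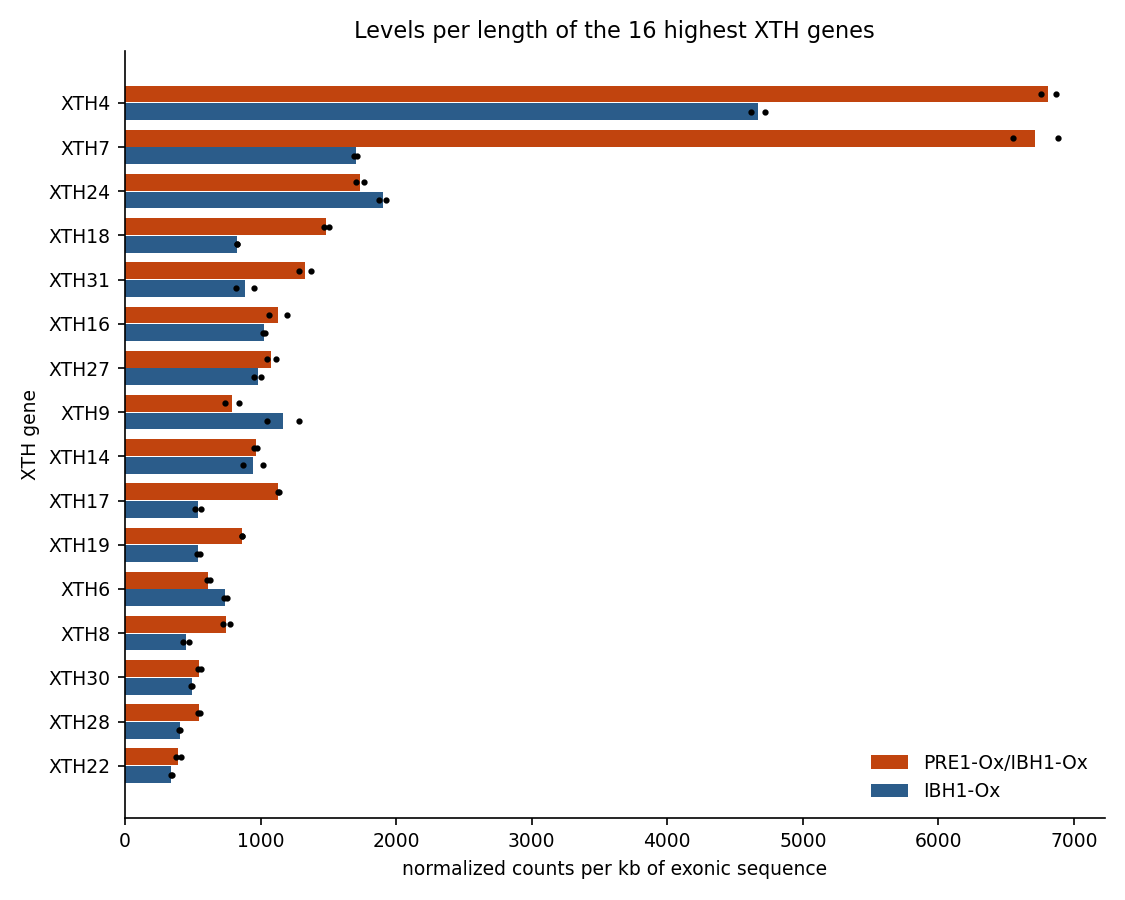
Normalized counts per kilobase of exon for the 16 most abundant XTH members in PRE1-Ox/IBH1-Ox and in IBH1-Ox. Bars are means and points are libraries. XTH4 and XTH7 stand together, with means of 6811 and 6714 in PRE1-Ox/IBH1-Ox, while in IBH1-Ox XTH7 has a mean of 1701, close to XTH24 (1901).

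In IBH1-Ox against wild type, 8 XTHs were listed, 7 that rose in IBH1-Ox and 1, XTH7, that fell. The authors' deposited table of IBH1-Ox against wild type lists only genes with an adjusted p below 0.05 and a change of at least 1.5-fold, so the 25 members it does not name have no value there and cannot be called unchanged. It listed 7 of the 33 members as higher in IBH1-Ox, where 3.22% of about 24763 genes tested were listed as higher. The 1 listed as lower stands against a background of 3.03%, which is the same share. The number of genes tested was worked out from the ratio of adjusted to raw p-values.

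XTH15 showed the smallest adjusted p among the members that rose, with 632 and 617 normalized counts in IBH1-Ox, against 375 and 302 in wild type (log2 0.88, adjusted p 3.76e-13, authors' deposited table). XTH30 (AT1G32170), of clade III-B, had 762 and 778 in IBH1-Ox, against 459 and 467 in wild type (log2 0.73, adjusted p 3.65e-12, authors' deposited table). XTH23 had 352 and 347 in IBH1-Ox, against 211 and 181 in wild type (log2 0.83, adjusted p 1.23e-08, authors' deposited table). In all 3 genes both IBH1-Ox libraries lay well above both wild-type libraries. Listing selects genes whose groups lie apart, so this adds no support of its own. XTH11 (AT3G48580) had the widest fold but few reads, with 54.6 and 51.7 normalized counts in IBH1-Ox, against 14.3 and 22.5 in wild type (log2 1.53, adjusted p 2.72e-04, authors' deposited table).

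XTH14, an enzyme of roots and root hairs, had 1331 and 1137 in IBH1-Ox, against 833 and 679.7 in wild type (log2 0.71, adjusted p 0.0265, authors' deposited table). XTH21 (AT2G18800), known for its part in primary root growth, had 159.5 and 159 in IBH1-Ox, against 106 and 99.2 in wild type (log2 0.63, adjusted p 0.00751, authors' deposited table). XTH5 (AT5G13870) had 196 and 201 in IBH1-Ox, against 125 and 134 in wild type (log2 0.61, adjusted p 0.00323, authors' deposited table). No library of IBH1-Ox overlapped wild type in these genes, which selection by the listing nearly ensures. For XTH21, 7.82% of its 50-base exonic windows occur elsewhere in the genome, the largest share in the family. Root hair markers moved in the same comparison: 4 of 7 were listed as higher in IBH1-Ox (EXPA7 log2 0.69, EXPA18 0.85, PRP3 0.81 and LRX1 0.75), and COBL9, RHD6 and RSL4 were not listed. Because unlisted markers have no value there, no summed level can be given, and their part in the XTH values was not tested.

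**Figure D4:**
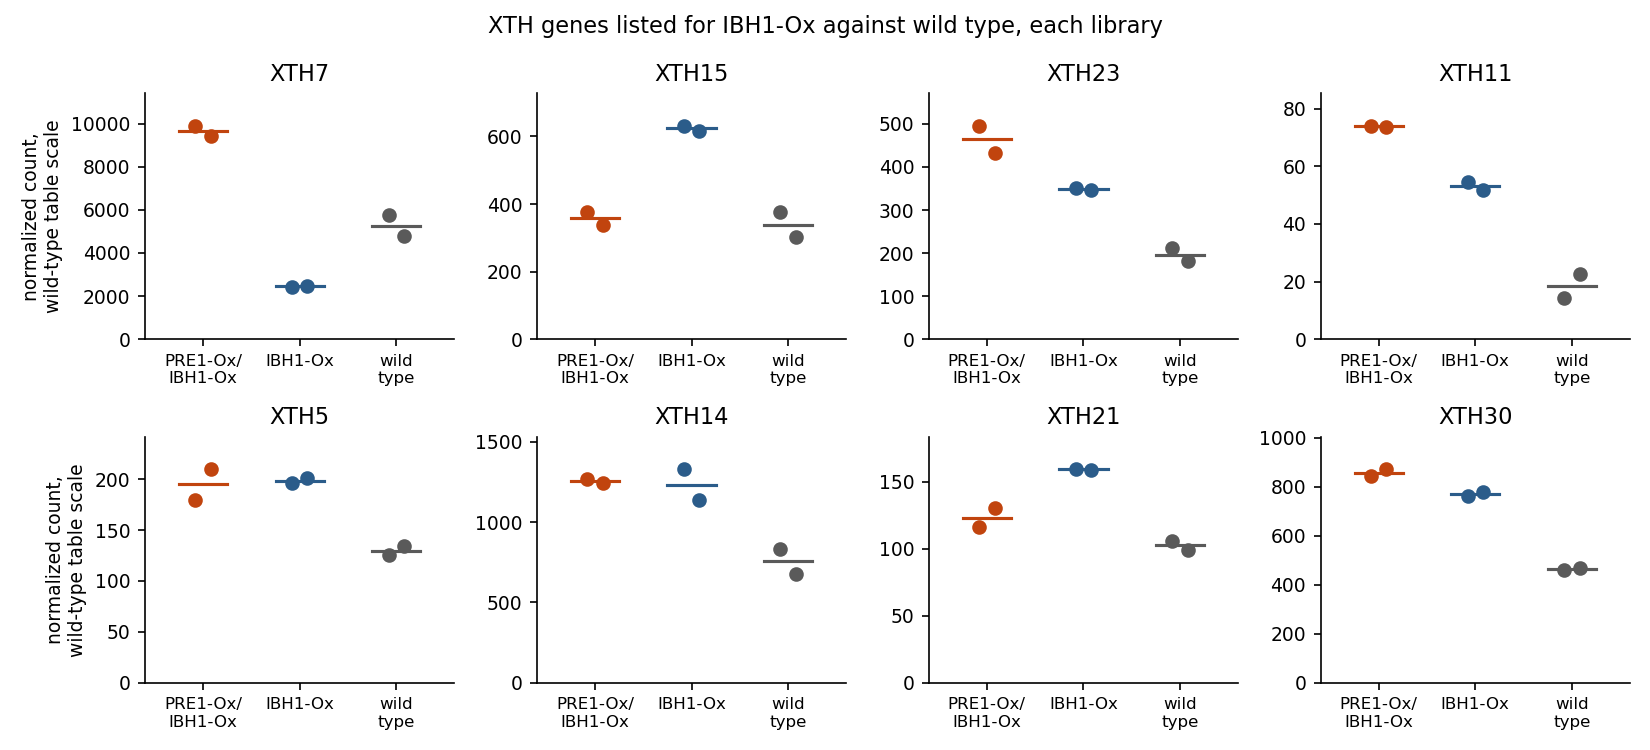
Normalized counts of the 8 XTH members listed in the comparison of IBH1-Ox with wild type, with PRE1-Ox/IBH1-Ox brought to the same scale through the IBH1-Ox size factors. Points are libraries and lines are means. XTH7 is lowest in IBH1-Ox, with a mean of 2448, and XTH15 is highest there, with a mean of 624.

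Of the 33 members, 17 were called in at least 1 comparison and 15 with a p-value in none. Called in both were XTH7, XTH15 and XTH23. Of all genes tested, 12.7% rose and 9.78% fell in PRE1-Ox/IBH1-Ox against IBH1-Ox. In IBH1-Ox against wild type, 3.22% were listed as higher and 3.03% as lower. The share of all genes called in either or in both was not worked out, and only the wild-type comparison has a fold limit. The comparisons share the IBH1-Ox libraries, so their values are given side by side only. The tables were normalized separately. With the IBH1-Ox size factors as a bridge (a factor of 1.1175), XTH7 stood at 9906 and 9423 in PRE1-Ox/IBH1-Ox, 2431 and 2465 in IBH1-Ox and 5754 and 4776 in wild type, and the double line was 1.84-fold above wild type. XTH15 stood at 377 and 338 in the double line, 632 and 617 in IBH1-Ox and 375 and 302 in wild type, so the double line and wild type overlapped. XTH23 was highest in the double line and lowest in wild type, with 496 and 432 in the double line, 352 and 347 in IBH1-Ox and 211 and 181 in wild type. XTH30 stood at 843 and 873 in the double line, 762 and 778 in IBH1-Ox and 459 and 467 in wild type. XTH11 stood at 74.1 and 73.5 in the double line, 54.6 and 51.7 in IBH1-Ox and 14.3 and 22.5 in wild type. The double line was thus above both other genotypes for XTH23, XTH11 and XTH30, although for XTH11 and XTH30 its difference from IBH1-Ox did not pass the authors' test. XTH21 stood at 116 and 130.1 in the double line, 159.5 and 159 in IBH1-Ox and 106 and 99.2 in wild type. For XTH5 and XTH14 the double line overlapped IBH1-Ox, at 179.9 and 209.9 for XTH5 and at 1270.0 and 1245 for XTH14, and lay above wild type. No test was made between the double line and wild type.

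The promoters of the 3 members called in both comparisons are shown because bHLH factors bind E-boxes (CANNTG, of which CACGTG is the G-box form), and brassinosteroid-regulated BZR1 is known to bind CGTGTG and CGTGCG. Capitals mark every match on either strand.
XTH7 promoter, chr4:17777396-17777695, minus strand: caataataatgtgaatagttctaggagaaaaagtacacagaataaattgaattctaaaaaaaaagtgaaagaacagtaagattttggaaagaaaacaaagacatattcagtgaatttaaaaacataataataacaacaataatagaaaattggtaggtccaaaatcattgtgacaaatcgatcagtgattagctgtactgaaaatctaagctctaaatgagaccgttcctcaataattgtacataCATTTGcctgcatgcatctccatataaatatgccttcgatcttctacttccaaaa
XTH15 promoter, chr4:8138343-8138642, minus strand: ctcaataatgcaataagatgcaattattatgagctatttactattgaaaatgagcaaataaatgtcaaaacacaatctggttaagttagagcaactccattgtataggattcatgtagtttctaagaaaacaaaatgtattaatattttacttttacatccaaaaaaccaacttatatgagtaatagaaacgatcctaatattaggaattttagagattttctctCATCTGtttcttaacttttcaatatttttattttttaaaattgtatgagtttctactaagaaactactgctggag
XTH23 promoter, chr4:13128144-13128443, plus strand: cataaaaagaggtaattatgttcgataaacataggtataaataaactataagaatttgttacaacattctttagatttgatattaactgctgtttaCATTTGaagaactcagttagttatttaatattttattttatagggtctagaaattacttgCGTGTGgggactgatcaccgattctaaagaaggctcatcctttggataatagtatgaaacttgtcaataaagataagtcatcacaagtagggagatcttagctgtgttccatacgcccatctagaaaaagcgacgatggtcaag
XTH7 held 1 CANNTG, 5 bases before the start, XTH15 held 1, 25 bases before it, and XTH23 held 1 CANNTG and 1 CGTGTG, 154 and 94 bases before it. Over the family, 24 of 33 promoters of 300 bases held CANNTG (72.7%), against 61.7% of 27443 nuclear protein-coding promoters. CGTGTG was in 4 of 33 (12.1%; XTH2, XTH8, XTH23 and XTH25), against 6.52% of all. CACGTG was in 0 of 33 and in 7.68% of all promoters, and CGTGCG in 0 of 33 and 1.96% of all. The shared run of XTH17 and XTH18 holds 1 CANNTG, 63 bases before the start of each. A match is a string of letters and not a measured binding site.

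Of 19 genes that build xyloglucan or trim it in the wall, 4 were called in each comparison, and 3 moved in opposite directions in the 2 comparisons. Both comparisons use the same IBH1-Ox libraries, so the 2 directions are not independent. The share of all genes with opposite calls was not worked out. In PRE1-Ox/IBH1-Ox, 3 of the 19 were higher and 1 lower than in IBH1-Ox by the authors' test, shares near the 12.7% and 9.78% of all genes tested. Their median log2 fold change was 0.01. CSLC4 (AT3G28180), a synthase of the glucan backbone, had 1706 and 1679 normalized counts in the double line, against 1187 and 1193 in IBH1-Ox (log2 0.51, adjusted p 6.55e-10, authors' deposited table). XLT2 (AT5G62220), which adds galactose to the side chains, had 609 and 657 in the double line, against 272 and 336 in IBH1-Ox (log2 1.06, adjusted p 4.03e-15, authors' deposited table). AXY4 (AT1G70230), which acetylates them, had 521 and 509 in the double line, against 266 and 286 in IBH1-Ox (log2 0.90, adjusted p 3.16e-07, authors' deposited table). In each of the 3 genes the genotypes were clearly apart. AXY8 (AT4G34260), a fucosidase that trims the polymer, had 1372 and 1347 in the double line, against 1653 and 1673 in IBH1-Ox (log2 -0.29, adjusted p 0.00214, authors' deposited table). XUT1 (AT1G63450), a galacturonosyltransferase of root hair xyloglucan, had 74.2 and 73.2 in the double line, against 145 and 121 in IBH1-Ox, and missed the threshold (log2 -0.85, adjusted p 0.0568, authors' deposited table), while limma-voom gave an adjusted p of 0.00112. The xylosyltransferases XXT1 to XXT5, which start the side chains, were not called by the authors' test. For XXT2 the authors' adjusted p was 0.114, and limma-voom with all libraries called it higher (log2 0.17, adjusted p 0.0308). That call did not hold in every limma-voom setting.

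In IBH1-Ox against wild type, 4 of the 19 were listed as lower, none as higher, and the other 15 were not listed. Of all genes tested, 3.03% were listed as lower and 3.22% as higher. All 4 are synthesis genes, but so are 16 of the 19, and only 3 are trimming genes. CSLC4 had 1326 and 1333 normalized counts in IBH1-Ox, against 2104 and 1943 in wild type (log2 -0.61, adjusted p 1.49e-14, authors' deposited table). XLT2 had 304 and 375 in IBH1-Ox, against 596 and 517 in wild type (log2 -0.71, adjusted p 9.00e-07, authors' deposited table). AXY4 had 298 and 320.0 in IBH1-Ox, against 530.2 and 453 in wild type (log2 -0.67, adjusted p 0.00131, authors' deposited table). All 3 were thus lower in both IBH1-Ox libraries, as XTH7 was, which selection by the listing nearly ensures. AXY4L (AT3G28150), a relative of AXY4, had 26.8 and 23.4 in IBH1-Ox, against 57.1 and 40.6 in wild type (log2 -0.96, adjusted p 0.0274, authors' deposited table), and was not called in the double line. The phloem marker SUC2 was also lower in IBH1-Ox (log2 -0.90), while the other phloem marker, APL, was not listed. Their part in these values was not tested.

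**Figure D5:**
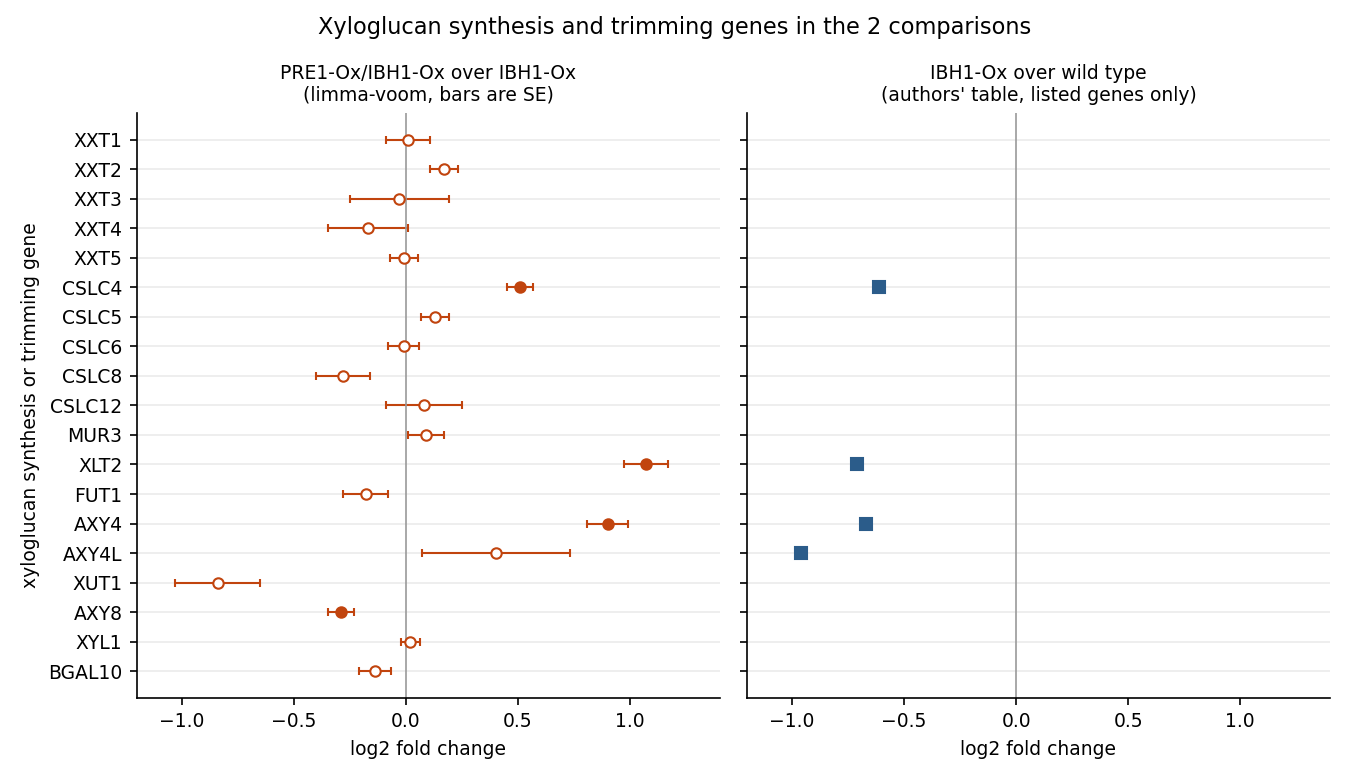
Log2 fold changes of the 19 genes of xyloglucan synthesis and trimming, on the same scale in both panels. On the left are limma-voom estimates with SE for PRE1-Ox/IBH1-Ox over IBH1-Ox, filled where the authors' adjusted p was below 0.05, and on the right the authors' folds of the 4 genes listed for IBH1-Ox over wild type. CSLC4, XLT2 and AXY4 lie above 0 on the left and below 0 on the right, and both panels use the same IBH1-Ox libraries.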

How the data were processed

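RNA-seq libraries were prepared from total RNA with a TruSeq kit, per the labels' protocols, and the submitters' processing notes name TopHat, DESeq and TAIR10 with no versions. The authors deposited group means of normalized counts (a signal, counts divided by size factors), their ratio as a fold, its log2 (text where a mean is 0, so recomputed from the fold in the larger table), and, from their test, a raw p-value and one adjusted for multiple testing. Strand and read length are not given in the sources used here. The table of IBH1-Ox against wild type lists 1547 genes (adjusted p up to 0.0492, at least 1.50-fold). The other table holds 33518 genes, 24451 with a p-value. Reads aligned to several places made up 10.3% of its signal in PRE1-Ox/IBH1-Ox and 12.8% in IBH1-Ox, those in no feature 0.959% and 1.05%, and ambiguous reads 1.24% and 1.25%. These entries were left out.

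The deposited means were split into whole reads of 2 libraries, giving exactly 1 solution for 99.97% of PRE1-Ox/IBH1-Ox means, 99.88% and 99.87% of IBH1-Ox means and 99.81% of wild-type means. Reads of IBH1-Ox were equal in both tables for 1545 of 1545 genes, and 0.267% to 0.800% of shifted means found a pair by accident. Libraries are known only by size factor. The mean chi-square between libraries is 1 under counting noise. In the larger table it was 1.23 in PRE1-Ox/IBH1-Ox (19100 genes, median 0.507) and 2.26 in IBH1-Ox (19996 genes, median 0.733). Over the listed genes of the other table it was 2.91 in IBH1-Ox (1454 genes, median 0.769) and 3.68 in wild type (1477 genes, median 0.910). The gene sets differ, so wild type and the double line cannot be compared by these values. No pair was counted as 1 sample. Calls follow the authors' adjusted p. The reads were also fitted with limma-voom (limma 3.58.1, R 4.3.3; authors' size factors, mean of 10 or more, 19993 genes; tested on simulated data), with Benjamini-Hochberg adjustment.

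The members, the gene lists and the markers were chosen with earlier results of these data known. Every XTH called in either table, the 3 most abundant of the uncalled, those with an adjusted p of 0.05 to 0.2, and called members of the xyloglucan list were named. Other members, with the neighbours and TCH4, were added after their values were seen. Positions and sequences are from RefSeq TAIR10.1. The catalytic motif was searched by translating the RefSeq coding sequences, and protein sequences are not shown.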

Additional observations from a re-analysis of the deposited data

How the results depend on the processing

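No paired analysis was possible because the deposited columns are group means and the recovered libraries carry no replicate number. No result reversed. With limma-voom (authors' size factors, TMM factors or no filter) all 12 XTH calls of PRE1-Ox/IBH1-Ox against IBH1-Ox kept their sign and call, and 11 of 12 did without either double-line library. Leaving out each library in turn, limma-voom called 11 to 17 XTHs (8 to 13 higher, 2 to 4 lower) and 5 to 6 xyloglucan genes (3 to 4 higher, 2 to 3 lower), the lone library being assumed to vary like the other group. Calls over all genes fell to 2977 higher and 2077 lower without the double-line library of the larger size factor, and to 3072 and 2219 without the other, against 4155 and 3457 with all libraries. XTH6 missed the threshold without the library of the smaller size factor (log2 -0.24, adjusted p 0.0636, limma-voom), and XTH23 without that of the larger (log2 0.31, adjusted p 0.110, limma-voom). Limits on fold leave fewer calls by construction. At 1.5-fold or more, 7 XTHs (1 lower) and 2 xyloglucan genes (0 lower) were called in PRE1-Ox/IBH1-Ox against IBH1-Ox. At 2-fold or more, 2 XTHs (2 higher, 0 lower) and 1 xyloglucan gene (1 higher, 0 lower) were called there, and 2 XTHs (1 higher) and 0 xyloglucan genes (0 lower) in IBH1-Ox against wild type. The share of all genes called at 2-fold was not worked out, so these counts have no background beside them. Of the xyloglucan genes, 2 were lower in PRE1-Ox/IBH1-Ox in limma-voom with all libraries (authors' size factors, TMM or no filter), against 1 by the authors' test. The cause was not tested. The table of IBH1-Ox against wild type could not be refitted, since it lists only called genes. Without each library in turn, all 8 of its XTH folds kept their sign, as values with no test. The libraries of these genes did not overlap between genotypes, so leaving a library out could not reverse a sign. The shifts were also below the replicate spread, but with 2 libraries per group this nearly had to be so. Neither outcome tells how firm the folds are. The members with under 10 normalized counts are limited by depth.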
